A study of Mus musculus with 3 samples.

Results

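The sites described here are meiotic break hotspots of the humanized PRDM9 allele whose H3K4me3 lay almost only on the B6 homologue in a mouse hybrid. They were selected on 4 deposited values: an autosomal position, the PRDM9 class HUM (the humanized variant, as the authors inferred it), no overlap with a PRDM9-independent H3K4me3 peak, and a B6 share of H3K4me3 over 0.9. The B6 share is the part of a mark's signal that the authors placed on the B6 homologue, from 0 to 1. The selection left 615 sites of the 24586 in the table. Of 9605 HUM sites, 9281 were autosomal, 8605 of these lay off independent peaks, and 8091 of those had an H3K4me3 share, so the 615 made up 7.60% of the sites that could be chosen. The 514 HUM sites without a share could not be placed. The name B6-only is used for the 615 sites, although 19 of them had a share of 1 and the rest kept some H3K4me3 signal on the CAST homologue.

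The animals were F1 males of a cross between C57BL/6J (B6) and CAST/EiJ (CAST), and all carried 1 humanized and 1 CAST allele of Prdm9 (HUM/CAST). Whole testis was used, so the signals come from a mixture of testis cells. DMC1 ChIP-seq was made from a male of 10 weeks, and H3K4me3 ChIP-seq and MNase-seq from an adult male. The file headers credit the raw H3K4me3 reads to Li and colleagues and do not say whether those are from the H3K4me3 library listed here. Each assay had 1 library, so the differences below are not checked by replicates, sites do not stand in for animals, and no p-value was computed. The MNase-seq data were not used.

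PRDM9 is a zinc-finger protein of early meiotic prophase that binds DNA motifs and trimethylates histone H3 at lysine 4 on the flanking nucleosomes. SPO11 then cuts near the bound motif, and the recombinase DMC1 coats the resected single strands, which is why DMC1 ChIP-seq marks breaks under repair. In a hybrid, a base difference inside a motif can leave PRDM9 with a binding site on 1 homologue only, and such hotspots are called asymmetric. The humanized allele carries zinc fingers of the human protein, whose motifs have not been exposed to that protein over the history of either mouse strain.

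The centres of the sites can be set against sequence only where a reference promoter window covers them (RefSeq, GRCm38.p6, the build called mm10 by the authors). A window spans 250 bases before to 50 bases after an annotated start, and 1 of the 615 sites was centred in one. It lay at chromosome 5, position 107853032, inside the protein-coding gene Evi5 and upstream of the long noncoding RNA Gm42149. Its DMC1 signal was 231 and its H3K4me3 signal 25.4, with B6 shares of 0.984 and 0.937. The window is printed 5′ to 3′ on the minus strand, and the site centre is base 241. Capitals mark CCTCCCT, a 7-base core of the human PRDM9 motif, at bases 193 to 199.
Gm42149 (chr5:107852973-107853272, minus strand): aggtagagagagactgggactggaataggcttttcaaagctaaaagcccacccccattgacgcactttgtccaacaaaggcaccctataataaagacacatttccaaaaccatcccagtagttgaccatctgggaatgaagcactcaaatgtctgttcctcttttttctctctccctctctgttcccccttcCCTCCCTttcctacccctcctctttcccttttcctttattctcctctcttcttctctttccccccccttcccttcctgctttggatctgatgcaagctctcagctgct
Both strands were searched for CCTCCCT and for a longer degenerate form (CCNCCNT, then any 2 bases, then CCNC), of which CCTCCCT can be the start. Among 31365 distinct autosomal promoter windows, 15.4% held the 7 bases and 6.35% the longer form. The Gm42149 window did not hold the longer form. Of all autosomal HUM sites off independent peaks, 17 were centred in a window, and 4 of these windows held the longer form, at 7, 15, 110 and 178 bases from the site centre. The 2 nearest, both at sites marked on both homologues, are shown for comparison with the match in capitals, and were picked for their short distance. The first lies in the window of Gm33727, with the motif on the strand opposite to the one printed, 7 bases from a site with DMC1 267 and an H3K4me3 share of 0.476. The second lies in that of Gm30788, 15 bases from a site with DMC1 11.8 and a share of 0.381.
Gm33727 (chr17:25518399-25518439, plus strand): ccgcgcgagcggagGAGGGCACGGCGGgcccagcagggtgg
Gm30788 (chr1:72770007-72770047, minus strand): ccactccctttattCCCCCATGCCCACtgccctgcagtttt
These matches are descriptions of letters, and a match in 1 window says nothing of the other B6-only sites, whose sequence was not used here.

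The B6-only sites spanned a wide range of break signal. Their DMC1 signal ran from 8.55 to 1100 in the authors' units, with a median of 82.6 and quartiles of 35.7 and 189. Their H3K4me3 signal had a median of 10.6 and quartiles of 7.46 and 16.2. Across the 615 sites the marks rose together, with a Spearman correlation of 0.725, given as a description since H3K4me3 comes from 1 library and DMC1 from another. At 293 of them (47.6%) the H3K4me3 value repeated that of an earlier site in the table, against 41.6% of all sites.

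The class was stronger in DMC1 than the 4656 HUM sites marked on both homologues (H3K4me3 share 0.3 to 0.7), which had a median DMC1 of 54.8. The log2 difference was 0.59, or 1.51-fold, and it was positive on 17 of 19 autosomes, from -0.29 on chromosome 1 to 1.75 on chromosome 13. Total H3K4me3, which comes from the library that supplied the selecting share, was lower at the B6-only sites (10.6 against 12.2, a log2 difference of -0.21). Both differences moved with the threshold. With sites over 0.8 the DMC1 difference was 0.034, with sites over 0.95 it was 0.95, and at 0.95 the H3K4me3 difference changed sign to 0.055.

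The mirror class, 563 HUM sites with an H3K4me3 share under 0.1 (CAST-only), was stronger still. Its median DMC1 was 115, so that the log2 difference of the B6-only sites from it was -0.48, and they were the lower on 17 of 19 autosomes. Total H3K4me3 was nearly equal in the mirror classes, with medians of 10.6 and 10.5. The 1224 B6-only sites of the CAST allele of PRDM9, marked on the same homologue, had far more of both marks, with medians of 262 for DMC1 and 17.8 for H3K4me3.

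**Figure D1:**
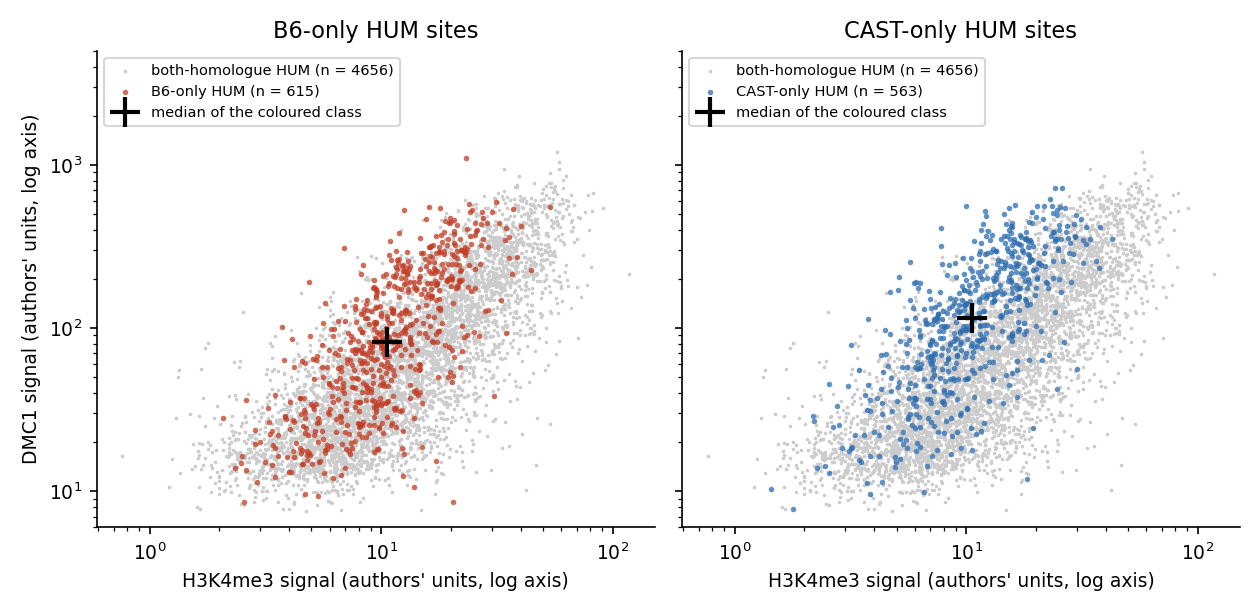
DMC1 signal (vertical) against H3K4me3 signal (horizontal), both in the authors' units on log axes, for 1 point per autosomal HUM site off independent peaks. Red points are the 615 B6-only sites (left) and blue points the 563 CAST-only sites (right), grey points are the 4656 both-homologue sites, and the cross marks the coloured class's medians (82.6 and 10.6 on the left, 115 and 10.5 on the right).

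In the plot of the marks against each other, both one-homologue classes lie mostly in the upper part of the grey cloud, and the blue cross is the higher. The part that B6-only sites made up of the strongest HUM sites depended on how many ranks were counted. Among the 8091 HUM sites with a share, the 50 strongest by DMC1 held 1 B6-only and 3 CAST-only sites, the 200 strongest held 15 and 22, and the 1000 strongest held 103 and 141. The B6-only share of those ranks was thus 2%, 7.5% and 10.3%, beside 7.60% of all. In sums, the 615 sites carried 9.41% of the DMC1 and 6.72% of the H3K4me3 signal of the 8091.

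The strongest B6-only site, and the only one among the 50 strongest HUM sites, lay inside Cfap54, a gene of the axoneme of motile cilia and sperm tails (chromosome 10, position 93007642). It had DMC1 1100 and H3K4me3 23.2, with B6 shares of 0.998 and 0.978. No other site of the class had a DMC1 signal over 593. The second lay inside Zfp462, a zinc-finger gene (chromosome 4, 54978451), with that DMC1 signal and H3K4me3 31.4. The third lay between genes, 46.8 kb from Add3, a membrane-skeleton adducin (chromosome 19, 53093617, DMC1 572). The remaining 3 of the strongest 6 lay inside Cadm4, a cell adhesion gene (chromosome 7, 24502483, DMC1 553), inside the receptor gene Notch2 (chromosome 3, 98029242, DMC1 551) and inside the predicted gene Gm5544 (chromosome 3, 97932385, DMC1 543). All 6 had DMC1 B6 shares between 0.992 and 0.998.

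The 6 sites with the strongest H3K4me3 all had DMC1 above the class's upper quartile of 189, but at differing levels. The site in Cadm4 also had the highest H3K4me3 of the class, 53.5. The next was inside Iqsec1, an exchange factor for ARF GTPases (chromosome 6, 90826140), with H3K4me3 44.3 and DMC1 227. Sites near Sorcs1 (151.8 kb away, chromosome 19, 49991531) and near Moxd1 (137.2 kb away, chromosome 10, 24439999) had H3K4me3 of 40.3 and 36.98 and DMC1 of 420 and 537. The site 29.4 kb from Aff3, a nuclear protein of transcription elongation (chromosome 1, 38659559), had 38.6 and 274, and the one inside Nav1, a microtubule-associated neuron navigator (chromosome 1, 135606338), had 36.7 and 213. These 6 sites with the most H3K4me3 therefore differed in DMC1 from 213 to 553.

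The next question was how much DMC1 the B6-only sites had for their H3K4me3. This ratio is in the authors' units, has no absolute meaning and is compared only between sites. Its median was 7.93 at the B6-only sites (quartiles 4.54 and 13.3) and 5.07 at both-homologue HUM sites, a log2 difference of 0.64, or 1.56-fold. The difference was positive on 19 of 19 autosomes, from 0.18 on chromosome 6 to 1.10 on chromosome 13. Of the 615 sites, 438 had a ratio above the both-homologue median (71.2%, exact 95% interval 67.5% to 74.8%), against 56.1% of all 8605 autosomal HUM sites off independent peaks. The classes overlapped widely, since 177 B6-only sites lay at or below that median. Such intervals cover counting error only.

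CAST-only HUM sites had a higher ratio, 10.8, so that the B6-only sites differed from them by -0.45 on the log2 scale and were the lower on 17 of 19 autosomes, the exceptions being chromosomes 11 and 18. B6-only sites of the CAST allele had a ratio of 14.1, a log2 difference of -0.83, and were the higher on 19 of 19. The gap to the both-homologue class depended on the level of H3K4me3. The HUM sites were split into 4 bins at the quartiles of H3K4me3 signal, 5.95, 9.98 and 18.1. The log2 difference was 0.16 in the lowest bin and 0.86, 0.99 and 0.93 in the others. In the same order the difference from CAST-only sites was -0.43, -0.42, -0.49 and -0.09. The B6-only class had 99, 181, 223 and 112 sites in the bins, and its median ratio was 5.97, 7.19, 8.94 and 11.7. H3K4me3 is both the divisor of the ratio and the measure that forms the bins, so the trend along the bins is a description of these values.

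**Figure D2:**
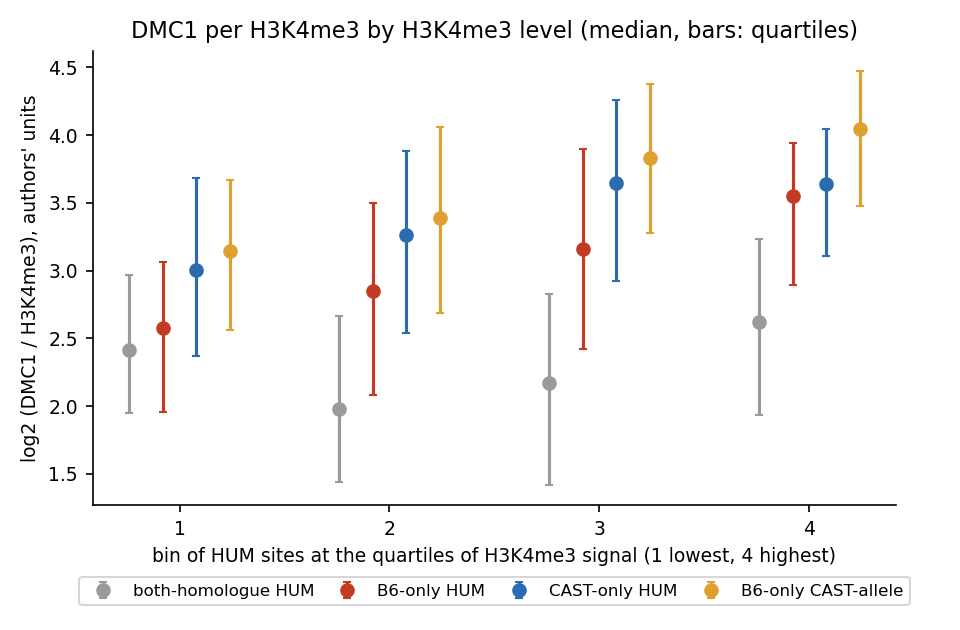
Log2 ratio of DMC1 to H3K4me3 (vertical, authors' units) in 4 bins of the autosomal HUM sites cut at the quartiles of H3K4me3 signal (horizontal, 1 lowest), as medians with bars from the lower to the upper quartile. B6-only HUM sites (red) sit just above both-homologue HUM sites (grey) in bin 1, by 0.16, and by 0.86 to 0.99 in the other bins, and below B6-only CAST-allele sites (yellow) in every bin.

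The ratio varied more among the B6-only sites than between the classes. Among those at or above the class median of summed ranks, the highest ratios belonged to the Cfap54 site (47.3), a site 471 kb from Adgrl4, an adhesion receptor gene (chromosome 3, 150966673, ratio 44.9), a site inside Celf2, a regulator of splicing (chromosome 2, 6876321, 42.0), and the Notch2 site (34.1). The Adgrl4 value rests on a low H3K4me3 of 6.89 beside a DMC1 of 309. Among the same sites at or above that median, the lowest ratio, 1.24, belonged to a site inside the overlapping genes Gtf2f2, a subunit of the general transcription factor TFIIF, and Kctd4 (chromosome 14, 75956391, DMC1 38.2, H3K4me3 30.7). Next came sites inside Iqcm (chromosome 8, 75827684, ratio 2.32), 3.21 kb from the sperm calcium channel gene Catsper4 (chromosome 4, 134208752, 2.50) and inside Sash1 (chromosome 10, 8829695, 2.55). These 4 low sites had H3K4me3 above the class's upper quartile but DMC1 below its median. Choosing low ratios among sites of high summed rank favours this pattern.

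Since the classes differ in how much of each signal lies on which homologue, the ratio was also formed on 1 homologue at a time, as signal times share. This quantity was added after the other values were seen, and its H3K4me3 term contains the share that selected the sites. On the B6 homologue the median ratio was 8.32 at 603 B6-only sites and 4.28 at 4456 both-homologue HUM sites, a log2 difference of 0.96, or 1.94-fold. It was positive on 19 of 19 autosomes, from 0.61 to 1.42. On the CAST homologue the ratio was 11.4 at CAST-only and 5.68 at both-homologue sites, a log2 difference of 1.005. Counted this way, the gain on the B6 homologue was smaller than that on the CAST homologue on 10 autosomes and larger on 9.

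The offset between the mirror classes was also present at sites marked on both homologues. There the log2 difference of the ratio on the B6 homologue from that on the CAST homologue was -0.41. It was -0.46 between B6-only sites on B6 and CAST-only sites on CAST. These are differences of class medians, and the homologues were not paired within a site. Within the both-homologue class the offset was -0.49, -0.40, -0.36 and -0.32 in the 4 bins of H3K4me3. CAST-allele sites differed in this respect. Their both-homologue class had a similar offset of -0.31, but their gain on the B6 homologue was 1.47 and that on the CAST homologue 1.01, so that their B6-only sites stood 0.14 above their CAST-only sites.

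**Figure D3:**
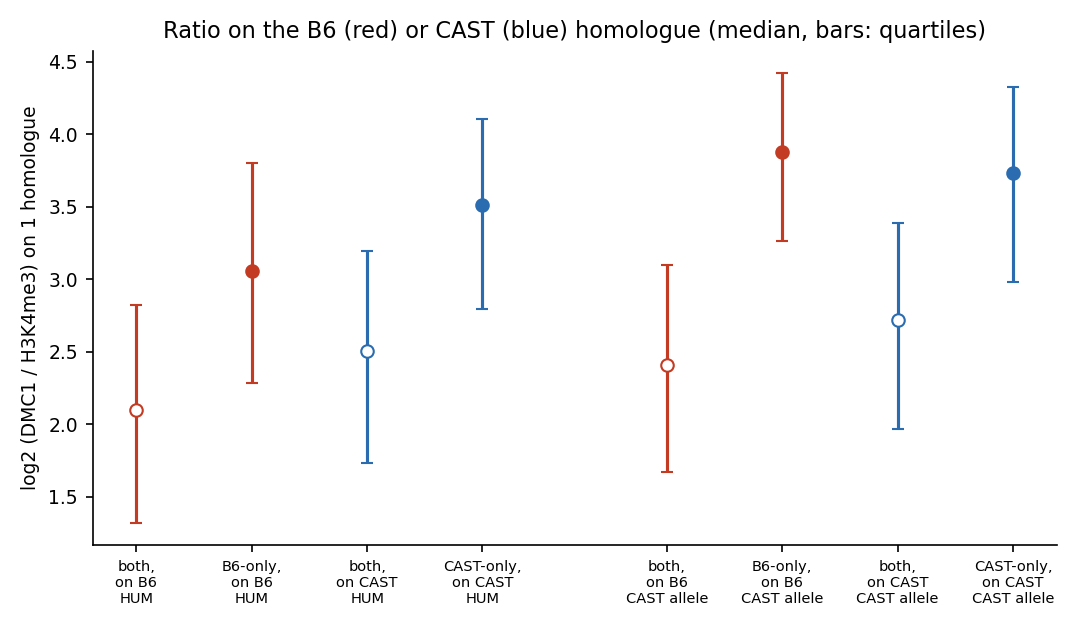
Log2 ratio of DMC1 to H3K4me3 on 1 homologue (vertical) by class and PRDM9 allele (horizontal), as medians with bars from the lower to the upper quartile. Red is the B6 and blue the CAST homologue, open points are both-homologue sites and filled points are sites marked on 1 homologue. Among HUM sites the filled points stand above the open ones by 0.96 (red) and 1.005 (blue), and among CAST-allele sites by 1.47 and 1.01.

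The homologue of the break mark was measured in another library than the one used for selection. A DMC1 share was given for 603 of the 615 sites. Of these, 568 had a DMC1 B6 share over 0.9 (94.2%, exact interval 92.0% to 95.9%), against 17.4% of the 7954 autosomal HUM sites off independent peaks that had a DMC1 share. None had a share under 0.5 (0 of 603, which allows a share of up to 0.498% when the limit is set at 3 counts of the total, and 0.61% by the exact interval). The median DMC1 share was 0.984 (quartiles 0.964 and 0.993), above the median H3K4me3 share of 0.94, and the DMC1 share was the higher at 490 of the 603 sites. CAST-only HUM sites mirrored this, with 95.1% of DMC1 shares under 0.1 and a median of 0.018. A DMC1 share further from 0.5 than the H3K4me3 share was common among HUM sites. It was found at 6183 of the 7814 autosomal HUM sites off independent peaks with both shares, and at 463 of 554 CAST-only sites. The 490 of 603 is therefore not read as a trait of the B6-only class.

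The skew of DMC1 ran ahead of that of H3K4me3 below the threshold too. HUM sites with an H3K4me3 share over 0.7 and up to 0.9 numbered 1137, and 64.8% of their DMC1 shares were already over 0.9. In steps of 0.05 in the H3K4me3 share, the median DMC1 share was 0.706 at 0.65 to 0.7, 0.857 at 0.7 to 0.75, 0.944 at 0.8 to 0.85 and 0.981 at 0.9 to 0.95. Break signal did not rise evenly along this scale. Median DMC1 was lowest, 30.4, at an H3K4me3 share of 0.75 to 0.8 and was 68.6 at 0.9 to 0.95 and 105 at 0.95 to 1. The B6-only sites exceeded the partly skewed sites in DMC1 by 1.19 on the log2 scale and on 19 of 19 autosomes. They also exceeded them in total H3K4me3, by 0.54 and on 18 autosomes. In the ratio of DMC1 to H3K4me3 the difference was 0.53, on 19 of 19.

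**Figure D4:**
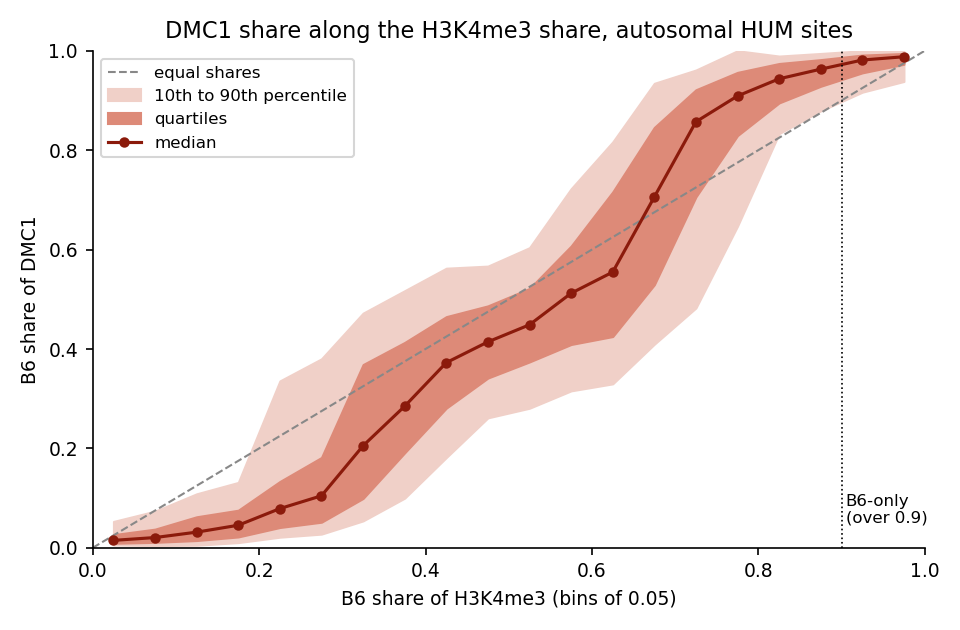
B6 share of DMC1 (vertical) in steps of 0.05 of the B6 share of H3K4me3 (horizontal) over autosomal HUM sites, as the median (line), quartiles (dark band) and 10th to 90th percentile (light band). The dashed line marks equal shares and the dotted line the 0.9 threshold. From a share of 0.65 on the median DMC1 share is above the dashed line, at 0.981 and 0.988 in the last 2 steps.

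The sites with the least DMC1 skew were mostly weak. The 35 B6-only sites with a DMC1 share of 0.9 or less had medians of 21.4 for DMC1 and 5.36 for H3K4me3. The 12 without a DMC1 share had a median DMC1 of 22.9. The 149 sites with a share of 0.99 to under 1 had 222. The 64 sites with a share of exactly 1 did not continue this order, with a median DMC1 of 56.3. In the 4 bins of H3K4me3, from the lowest, 78.9%, 93.8%, 99.1% and 98.2% of B6-only sites had a DMC1 share over 0.9. The number of reads behind a share was unknown, so the precision of a single share cannot be given.

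An exception to the weak signals was the site inside Kif6, a kinesin gene (chromosome 17, 49628467). It had the lowest DMC1 share of the class, 0.5625, although its H3K4me3 share was 1, and its signals were DMC1 94.9 and H3K4me3 25.1. The next lowest shares were 0.76 inside Fndc3b (chromosome 3, 27578056, DMC1 77.8), 0.765 inside Slc35d1, a nucleotide-sugar transporter (chromosome 4, 103221706, DMC1 13.8), 0.767 at 15.3 kb from the adenylate kinase gene Ak4 (chromosome 4, 101401225, DMC1 19.9) and 0.786 inside Samd4, an RNA-binding regulator of translation (chromosome 14, 46921282, DMC1 15.2). Of these 5 sites, those in Kif6 and Fndc3b were near the class median in DMC1 and the other 3 were below its lower quartile.

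At the threshold itself, the B6-only sites just inside lay in Xylt1 (H3K4me3 share 0.901, DMC1 76.8), in Plagl1 (0.901, DMC1 108) and 100.4 kb from Shisa9 (0.901, DMC1 28.6). Just outside, 15 HUM sites tied at a share of exactly 0.9, with DMC1 from 9.05 to 284 and a median of 48.3. The first 3 of these in the table lay in Atp5c1 (DMC1 284), 94.5 kb from Ppp1r26 (DMC1 30.6) and in D430041D05Rik (DMC1 67.7). The 6 named sites had DMC1 shares over 0.9, from 0.956 to 0.992.

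The B6-only sites were spread over all 19 autosomes, from 16 on chromosome 15 to 48 on chromosome 4. Their share of the HUM sites with an H3K4me3 share ran from 4.98% on chromosome 15 (exact interval 2.88% to 7.97%) to 10.8% on chromosome 17 (7.66% to 14.7%). Chromosome 17 had 35 B6-only and 11 CAST-only sites, and chromosome 2 had 30 and 43. In all, B6-only sites outnumbered CAST-only sites on 12 autosomes and were fewer on 6.

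Strength by autosome varied more than the ratio did. The median DMC1 of B6-only sites was lowest on chromosome 1, at 44.7 over 45 sites, where CAST-only sites had 146, and highest on chromosome 13, at 175 over 29 sites, where CAST-only sites had 100.3. Their median ratio ran from 5.82 on chromosome 1 to 10.7 on chromosome 10. Chromosome 1 also held the widest gap in the ratio between the mirror classes (-1.15 on the log2 scale), and chromosome 11 the widest in the other direction (0.20). The median DMC1 share of B6-only sites was between 0.976 and 0.99 on every autosome, with 0.977 on chromosome 1 and 0.989 on chromosome 13. Whether this share went with strength by autosome was not tested.

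**Figure D5:**
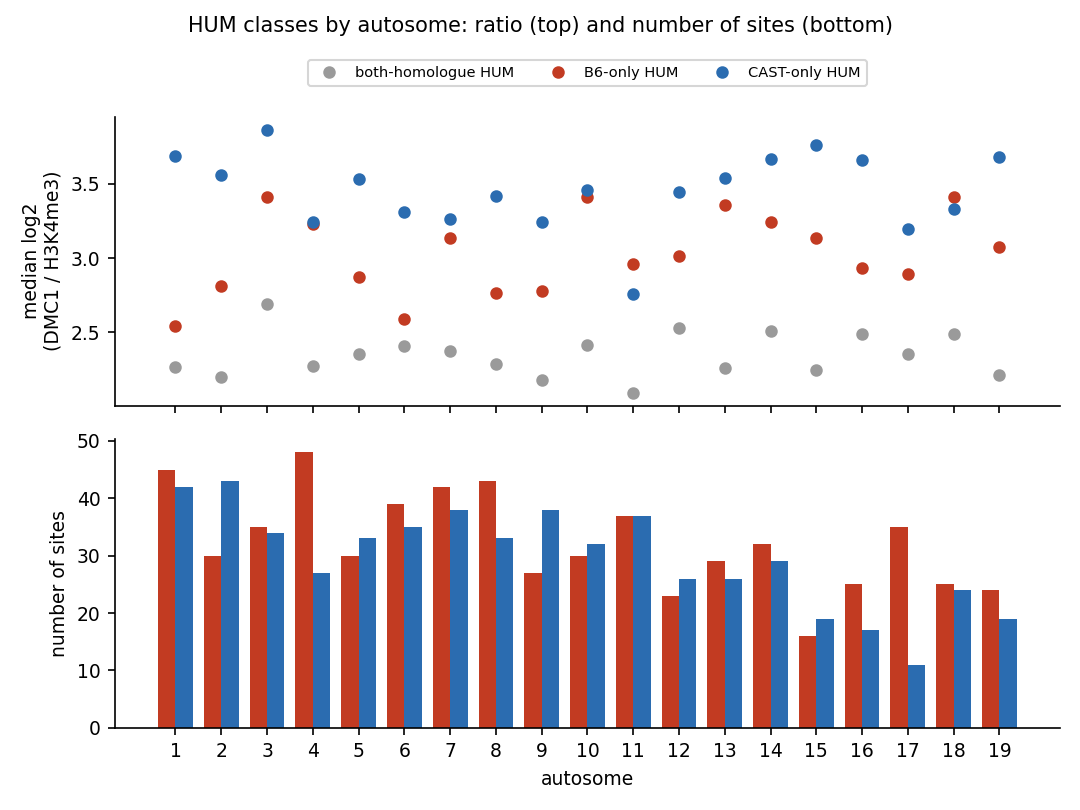
Median log2 ratio of DMC1 to H3K4me3 (top, vertical axis) and number of sites (bottom, vertical axis) for each autosome (horizontal). B6-only HUM sites (red) lie above both-homologue HUM sites (grey) on 19 of 19 autosomes and below CAST-only HUM sites (blue) on 17, and the bars range from 16 to 48 B6-only sites.

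Of the 615 sites, 328 lay inside a protein-coding gene (53.3%, exact interval 49.3% to 57.3%). The figure was 58.6% (54.4% to 62.7%) for CAST-only and 57.9% (56.5% to 59.3%) for both-homologue HUM sites, and 53.5% for B6-only CAST-allele sites. The HUM intervals overlapped, which does not show that the figures are equal, and their difference was not tested. The annotation used gives gene ends without exons, so exon and intron could not be assigned. Signals inside and outside genes differed little beside the spread of the class, with median DMC1 of 88.0 and 73.7 and ratios of 8.52 and 7.36.

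The 328 sites fell in 314 genes, and no gene held more than 2. There were 17 pairs of B6-only sites inside 1 gene, among them the long genes Dlg2, a synaptic scaffold, Sdk1 and Sdk2, adhesion proteins of synapses, Ank3, an ankyrin, and Wwox, an oxidoreductase. In 15 of the 17 pairs the DMC1 signals differed by more than 2-fold, with a median of 2.61-fold and a highest value of 15.1-fold. The DMC1 quartiles of the whole class differed 5.28-fold, and pairs in different genes were not compared. The count is therefore not read as a trait of sites that share a gene. The widest gap was in Fras1, an extracellular matrix gene, with DMC1 371 and 24.6 at sites 199 kb apart. The narrowest was in Sdk2, with 191 and 200.3 at sites 216 kb apart. H3K4me3 differed by a median of 1.58-fold.

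The closest pair of B6-only sites lay 3.79 kb apart inside Snap91, a clathrin adaptor of synapses (chromosome 9, 86844291 and 86848083), with DMC1 353 and 88.6. A pair 9.29 kb apart near Rap2a had 395 and 13.05, and a pair 9.76 kb apart at Sec14l3 had 110 and 37.4. In each of these pairs 1 site was well above the other. Otherwise the class was scattered, and the median distance to the next B6-only site was 1033 kb, with 26 sites that had another within 50 kb.

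The nearest HUM site that lay off independent peaks and had an H3K4me3 share was itself B6-only for 60 of the 615 sites (9.76%), CAST-only for 42 (6.83%) and marked on both homologues for 356 (57.9%). Around both-homologue HUM sites the nearest neighbour was B6-only in 7.93% of cases. Hotspots of the other PRDM9 allele lay at similar distances, and the median was 54.6 kb to the next CAST-allele site and 64.5 kb to the next HUM site. At the 21 B6-only sites with a CAST-allele site within 5 kb the ratio was 7.85, and at the rest it was 7.98.

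Genes of meiotic recombination were looked up as a fixed list of 49 symbols, of which 48 were matched and 47 are autosomal. It spans break formation (Spo11, Mei4, Rec114, Iho1), strand exchange (Dmc1, Brca2), crossover formation (Msh4, Msh5, Mlh3) and the synaptonemal complex (Sycp1, Sycp2, Sycp3). No B6-only site lay in or within 5 kb of any of them (0 of 615, which allows a share of up to 0.488% at the limit of 3 counts of the total). Of all 8605 autosomal HUM sites off independent peaks, 12 lay in or within 5 kb of these genes. With so few in all, the 0 among 615 is not read as a trait of the class. The 12 included 1 each at Dmc1 and Mei4 and 2 at Mlh3.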

How the data were processed

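DMC1 ChIP-seq, H3K4me3 ChIP-seq and MNase-seq libraries of F1 testis were described in the labels, and 1 deposited table of DMC1 sites was analysed. BWA was the aligner and mm10 the build, per the submitters' processing notes, which give version 0.7.15 for H3K4me3 and MNase-seq only. The DMC1 signal is a peak-caller intensity and the H3K4me3 signal an estimate at the same site, per the file headers, which credit the raw H3K4me3 reads to Li and colleagues. Their relation to the H3K4me3 library listed in the labels is not stated. The B6 share is a fraction that the authors computed as signal on B6 over signal on both homologues. How the signals were scaled to depth and how many reads lie behind a share are likewise not stated.

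From these values, log2 signals and log2 ratios were formed with no pseudocount, and differences of class medians were taken with Python 3.11.15, numpy 2.4.6, pandas 2.3.3 and scipy 1.17.1. Sites are not replicates, so differences were described by their direction on 19 autosomes. Shares of sites have exact Clopper-Pearson 95% intervals. Where a count was 0, the limit given is 3 counts of the total. Genes came from RefSeq GRCm38.p6 (21627 protein-coding genes). A planned motif search around every site needs a genome sequence and was replaced by a search of promoter windows. The scripts were tested on simulated data.

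The sites, classes and gene list were chosen with earlier results of these data known. Sites named are the 6 highest in DMC1 and in H3K4me3, the 4 highest and 4 lowest ratios among those at or above the median summed rank, the 5 lowest DMC1 shares, 3 on each side of the threshold, the 3 closest pairs and genes holding 2 or more. The last group is given by its counts and examples picked after their values were seen. Comparison sequences were also picked in this way. Values at some genes of the meiotic list are not reported here. Alternatives were the mean, bins at the quartiles of H3K4me3, strong sites only, other thresholds, sites on independent peaks, repeated H3K4me3 values, agreement of the DMC1 share, a pseudocount, other genes and each autosome left out.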

Additional observations from a re-analysis of the deposited data

How the results depend on the processing

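Of 258 alternative values for 10 results, 232 stayed within the 95% interval of the class median or share, 25 moved beyond it and 1 reversed; the cause was not tested. Most of the 258 values come from leaving out each of 19 autosomes in turn for the 10 results. Such a run keeps most of the sites, and no value moved in any of them. The 25 that moved and the 1 that reversed therefore all lie among the other, fewer alternatives, so the 232 is not a measure of robustness to processing. With B6-only sites over 0.95 in H3K4me3 share, the H3K4me3 difference from both-homologue sites reversed to 0.055, while the DMC1 difference was 0.95, the ratio difference 0.80 and the median DMC1 share 0.988. With sites over 0.8, these 4 values were -0.42, 0.034, 0.45 and 0.973, the percent with a DMC1 share over 0.9 was 86.9, and the gains on the B6 and CAST homologue were 0.83 and 0.80. Without sites that repeat an H3K4me3 value, the DMC1 difference was 0.36, the H3K4me3 difference -0.46 and the percent inside genes 61.2, which was 60.5 with all annotated genes. With the DMC1 share in the same class, the DMC1 and H3K4me3 differences were 0.40 and -0.37. With sites on independent peaks kept, the H3K4me3 difference was -0.30. The mean gave a DMC1 difference of 0.42. Within bins at the quartiles of H3K4me3 the DMC1 difference was 0.76, the ratio difference from both-homologue sites 0.81 and that from B6-only CAST-allele sites -0.58. At or above the median H3K4me3 the ratio differences were 0.91 from both-homologue, -0.31 from CAST-only and -0.62 from B6-only CAST-allele sites, and the gain on the B6 homologue was 1.15. Libraries could not be paired because there is 1 library per assay. The ratios on the B6 and CAST homologue of the same both-homologue site could be paired, but this was not done. The unknown read depth limits single shares most at weak sites.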

Other observations

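The X chromosome was outside the selection, and its HUM sites that meet the other criteria are given here as values. There were 202 of them, with a median DMC1 of 81.4, a median H3K4me3 of 12.0 and a median ratio of 7.41, beside 82.6, 10.6 and 7.93 at the autosomal B6-only sites. Their ratio was thus lower than the autosomal one by a log2 difference of 0.10. The median share on the X was 1 for both marks, and 193 of 194 DMC1 shares were over 0.9. The animals were males with 1 X chromosome, so no other homologue was present. These shares therefore do not describe asymmetry between homologues.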
